A study of Mus musculus with 4 samples.

Results

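Myeloid C-type lectin receptors were described in MDSCs that were cultured with or without EGCG. The genes were the 8 rows of the count table named Clec4d, Clec4e, Clec4n, Clec4a2, Clec5a, Clec7a, Clec12a and Clec10a, out of 53465 genes listed. They were selected by name, with earlier results of these data known. Of all genes, 14682 had enough reads to be tested, and all 8 receptor genes were among them.

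C-type lectin receptors are cell surface proteins with a lectin-like fold, by which phagocytes sense sugars and lipids of microbes or molecules of dying cells. Those that activate the cell signal through an ITAM, either in a partner protein (Fcer1g for the Dectin-2 family, Tyrobp for Clec5a) or as a single half-motif in their own tail (Clec7a), and they recruit the kinase Syk and the CARD9, BCL10 and MALT1 complex, which drives NF-κB and cytokine genes. Clec4a2 and Clec12a carry an ITIM instead, which recruits phosphatases and dampens activation. Neutrophils and monocytes, the cells that make up MDSCs, are a main site of their expression.

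MDSCs were isolated with beads against Gr-1 from the spleens of BALB/c mice (male, 6 weeks of age when 1000000 4T1 mammary carcinoma cells were injected), and according to the labels the mice were killed on day 21, while the methods describe an earlier day for cell sorting. All cells thus came from tumor-bearing mice and differed in the culture of 6 h, either in control medium (control replicates 1 and 2, with 0 μg/mL) or in medium to which 5 μg/mL of EGCG, a catechin abundant in green tea, was added (EGCG replicates 1 and 2). The sources used here do not say whether the 2 libraries within a group derived from separate mice, so that p-values measure the spread between these libraries, which may be technical. A bead sort keeps neutrophil-like and monocyte-like cells together, and in such bulk RNA fewer cells of a type cannot be told apart from less RNA per cell.

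The reads counted on genes ranged from 17767318 in control replicate 1 to 18390385 in EGCG replicate 1. The neutrophil markers were all above 3 counts in all libraries (12 of 12), with summed levels of 63900 and 75400 CPM (counts scaled to a common library size) in the control libraries and 84300 and 75100 CPM in the EGCG libraries. Monocyte markers (8 of 8 above 3 counts in all libraries) summed to 1630 and 1380 CPM in control and 1220 and 1290 CPM with EGCG, and macrophage markers (8 of 8) to 394 and 390 CPM against 306 and 326 CPM. Dendritic cell markers (8 of 8) summed to between 737 and 833 CPM, B cell markers (4 of 4) to between 303 and 349 CPM, and T and NK cell markers (5 of 7) to between 89.0 and 104 CPM. Basophil, mast cell and eosinophil markers (6 of 6) ran from 1040 to 1170 CPM in control and from 867 to 1010 CPM with EGCG, of which Prg2, an eosinophil granule gene, took 865 and 747 CPM in control and 738 and 607 CPM with EGCG, whereas the basophil gene Mcpt8 had overlapping groups (79.3 and 93.8 against 83.8 and 85.9 CPM). Erythroid markers (4 of 4) ran from 135 to 185 CPM over the 4 libraries, and platelet markers (4 of 4) were at 36.3 and 39.3 CPM in control and at 32.4 and 32 CPM with EGCG. Of the monocyte genes, the groups were apart for Fn1 (490 and 304 against 218 and 263 CPM), Csf1r and F13a1, and overlapped for Ly6c2 (120 and 147 against 158 and 132 CPM), Ccr2, Cx3cr1 and Ms4a4c. Of the macrophage genes, they were apart for Adgre1, C1qc, Vcam1, Cd5l and Mertk and overlapped for C1qa, C1qb and Spic. Of the platelet genes, the groups were apart for Itga2b (30.4 and 29.3 against 26.1 and 23.1 CPM) and overlapped for Pf4, Ppbp and Gp9. The neutrophil sum was lowest in control replicate 1, while control replicate 2 lay within the range of the EGCG libraries, whereas both control libraries were higher in the monocyte, macrophage and platelet sums and in that of basophils, mast cells and eosinophils. The part of these cell types in the values below was not tested.

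Of the 8 genes, 7 lie on chromosome 6 of GRCm38. The genes Clec4a2, Clec4n, Clec4d and Clec4e belong to the Dectin-2 cluster, which holds other lectin genes too, and lie within 183 kb, and Clec12a and Clec7a lie within a stretch of 130 kb in the natural killer gene complex. Promoters from RefSeq (GRCm38.p6, 250 bases before to 50 bases after the start) were found for 6 of the 8 genes. They were searched on both strands for the letters GAGGAA, the core of sites for PU.1, an ETS factor of the myeloid lineage. This word was present for 5 of the 6 genes, against 28.3% of 32851 promoters of the same length. The sequences of the 3 genes with the most reads and of Clec4a2, the gene with the smallest p in the comparison, are shown with the word GAGGAA, or its reverse complement, in capitals.
Clec7a (chr6:129472730-129473029, minus strand): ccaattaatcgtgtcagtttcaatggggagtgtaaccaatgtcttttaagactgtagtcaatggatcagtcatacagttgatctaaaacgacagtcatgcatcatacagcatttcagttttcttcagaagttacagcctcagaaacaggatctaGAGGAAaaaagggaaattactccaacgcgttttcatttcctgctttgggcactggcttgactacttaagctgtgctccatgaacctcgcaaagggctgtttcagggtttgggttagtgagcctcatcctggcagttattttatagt
Clec4d (chr6:123261857-123262156, plus strand): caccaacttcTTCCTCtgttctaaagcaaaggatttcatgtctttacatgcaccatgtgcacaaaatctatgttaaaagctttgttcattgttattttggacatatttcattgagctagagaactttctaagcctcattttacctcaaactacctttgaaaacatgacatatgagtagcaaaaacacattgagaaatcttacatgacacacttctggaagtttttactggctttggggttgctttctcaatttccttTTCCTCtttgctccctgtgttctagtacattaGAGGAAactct
Clec4e (chr6:123289822-123290121, minus strand): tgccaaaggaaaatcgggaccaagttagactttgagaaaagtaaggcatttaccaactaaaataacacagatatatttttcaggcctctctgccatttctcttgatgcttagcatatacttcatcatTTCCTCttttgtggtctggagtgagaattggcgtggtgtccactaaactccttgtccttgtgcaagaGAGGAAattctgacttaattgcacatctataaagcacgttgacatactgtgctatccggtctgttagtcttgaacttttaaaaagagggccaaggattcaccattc
Clec4a2 (chr6:123122440-123122739, plus strand): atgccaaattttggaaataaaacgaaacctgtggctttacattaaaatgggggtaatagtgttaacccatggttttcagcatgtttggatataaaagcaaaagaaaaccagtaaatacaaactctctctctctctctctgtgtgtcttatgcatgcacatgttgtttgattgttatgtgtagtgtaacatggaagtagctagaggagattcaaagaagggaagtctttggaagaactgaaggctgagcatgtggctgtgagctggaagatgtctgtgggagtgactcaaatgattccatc
The promoter of Clec4d held the word at 3 positions, that of Clec4e at 2 and that of Clec7a at 1 (in both start windows listed for this gene, of which one is shown), while the letters were not in the window of Clec4a2. Clec5a and Clec12a had it at 2 positions each. The windows of Clec4a2 and Clec12a lie inside the genes as annotated, so that the outermost annotated starts of these genes were not searched. The letters TTNNGNAA of C/EBP sites were present for 5 of the 6 genes, against 40.7% of all promoters, and in Clec12a they stood as the palindrome TTGCGCAA at position -140. The word of the TATA box, TATAAA, lay 29 bases before the start of Clec4e (4 of the 6 genes held it on either strand, against 13.6% of all promoters). AP-1 letters (TGANTCA) were present for 2 of the 6 genes, against 7.81% of promoters, and the ends of NF-κB sites (GGG and CC with 5 free bases between them) for 0, against 50.8%. Of the GAGGAA matches, 0 overlapped a match of the other words. A match of letters is a description of the sequence and was not tested as a binding site.

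Expression of the receptors was first ordered within the libraries by CPM per kilobase of exon, which allows levels of different genes to be compared. Clec7a (Dectin-1), the receptor of fungal β-glucans, had the highest level, between 405 and 466 CPM per kb. Clec4d (MCL), which binds mycobacterial glycolipids together with Mincle, had 283 to 381 CPM per kb. Clec4n (Dectin-2), a receptor of mannans, came next with 182 to 198 CPM per kb, and Clec4e (Mincle) followed with 94.9 to 108 CPM per kb. With the union of exons as length, these 4 genes had the same order in each of the 4 libraries and their ranges did not overlap. Clec5a (71.7 to 88.9 CPM per kb), Clec4a2 (66.2 to 89.5) and Clec12a (69.6 to 84.7) had overlapping ranges by this length. Clec10a, a galactose-type lectin of macrophages and dendritic cells, had between 0.628 and 0.869 CPM per kb. By mean level per length, Clec7a was above 99.2% of the genes tested with a known exonic length, Clec4d above 99.0%, Clec4n above 98.0%, and Clec4e, Clec5a, Clec4a2 and Clec12a above 95% to 96.3%, whereas Clec10a was above 19.7%. With the length of the longest coding transcript in place of the union of exons, an alternative chosen after seeing the data, 6 genes kept their rank by mean, but Clec4n (210 to 229 CPM per kb) and Clec4e (187 to 213 CPM per kb) then overlapped, with Clec4e above Clec4n in EGCG replicate 1, and Clec12a moved from rank 7 to rank 5 (75.9 and 168 CPM per kb) and Clec5a from rank 5 to rank 7. By that length Clec12a, at 154 to 187 CPM per kb, lay above Clec4a2 (78.1 to 106) and Clec5a (73.5 to 91.1) in all 4 libraries, while Clec4a2 and Clec5a overlapped each other.

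**Figure D1:**
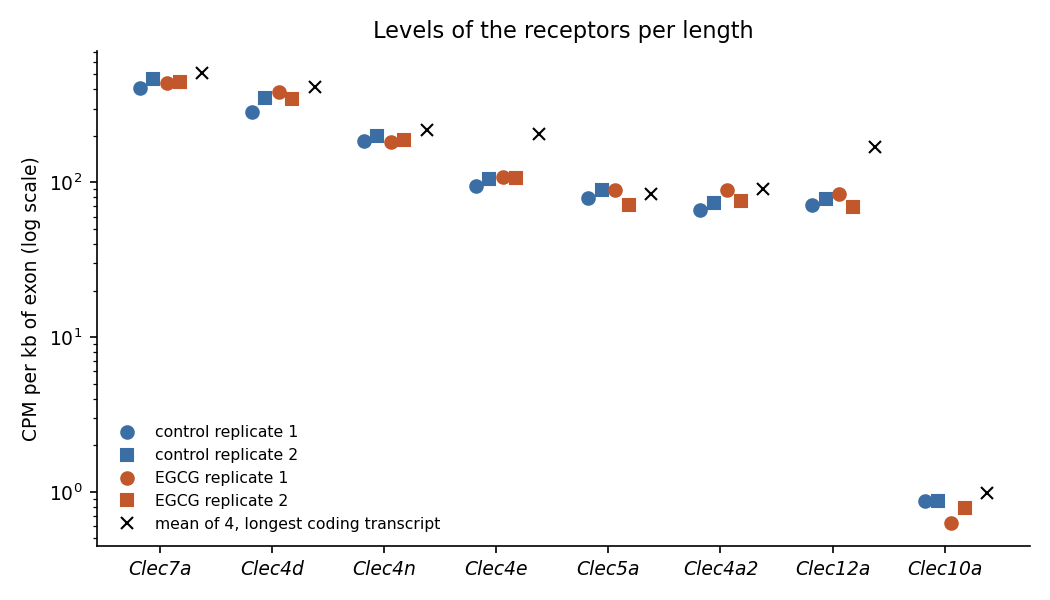
Level of each receptor gene per kilobase of exon in the 4 libraries (vertical axis, CPM per kb on a log scale), with the mean level per kb of the longest coding transcript as a cross. Per kilobase of exon, Clec7a, Clec4d, Clec4n and Clec4e are separated in this order in all libraries (with the longest coding transcript, Clec4n and Clec4e overlap), Clec5a, Clec4a2 and Clec12a overlap (with the longest coding transcript, Clec12a lies above the other two), and Clec10a lies between 0.628 and 0.869 CPM per kb.

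Whether EGCG altered the expression of these receptors was then tested in edgeR (quasi-likelihood, Benjamini-Hochberg adjusted over the 14682 genes). The number of receptor genes with an adjusted p under 0.05 was 0 of 8, and 0.150% of all tested genes passed. At an unadjusted p under 0.05 it was 1 of 8, against 12.2% of all tested genes. This gene, Clec4a2, was higher (5.22% of all genes), and 0 were lower (7.02% of all genes), and DESeq2 gave the same counts of 0 and 1. Control and EGCG libraries were fully separated for 3 of the 8 receptors, against 42.7% of all genes tested, of which 2 were higher (Clec4e and Clec4a2, 21.5% of all genes) and 1 was lower (Clec10a, 21.2%). The median log2 fold change of the 8 genes was 0.03, with 5 higher and 3 lower, beside 0.0031 over all tested genes. For the 7 abundant receptors, the 95% intervals of the fold change ran from 0.827 at the lowest to 1.35 at the highest.

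**Figure D2:**
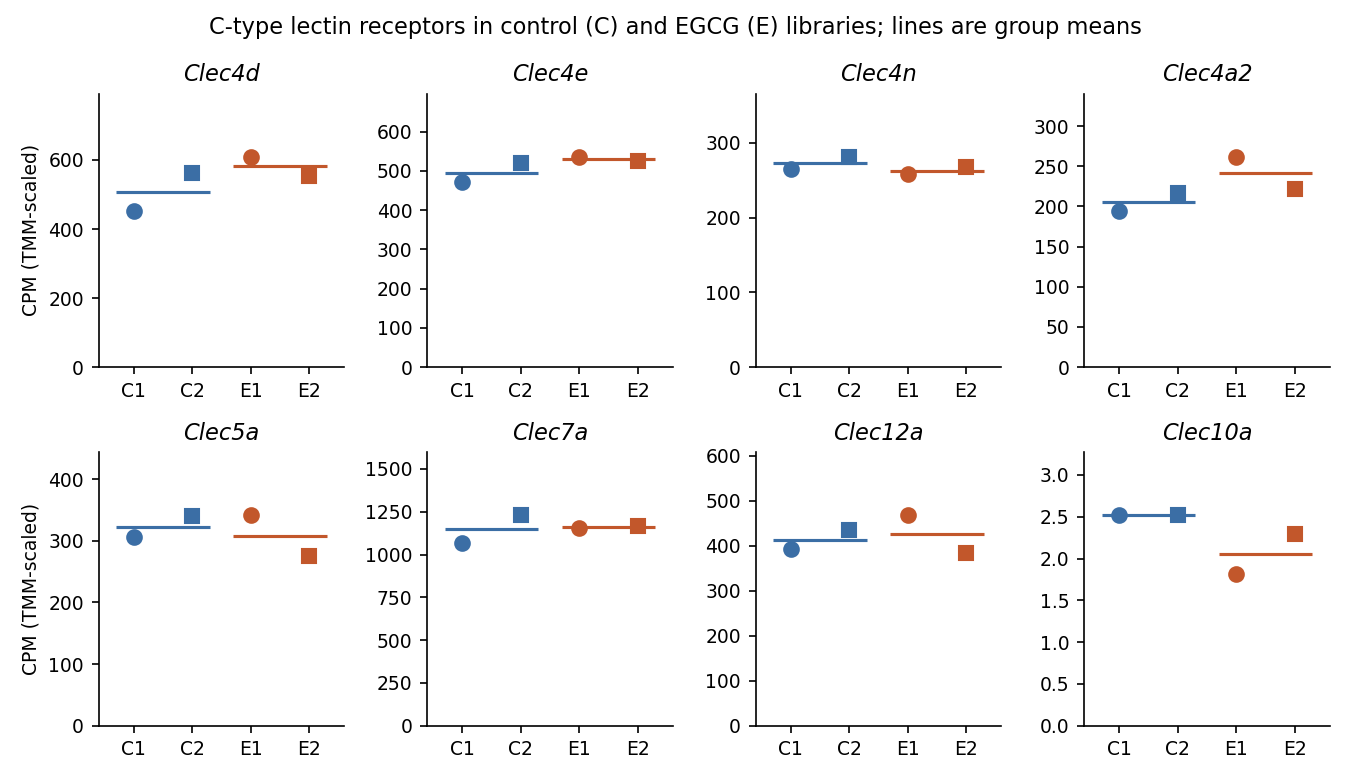
CPM of each receptor gene in control replicates 1 and 2 (C1, C2) and EGCG replicates 1 and 2 (E1, E2), with axes from 0 and group means as lines. The groups overlap for Clec4d, Clec4n, Clec5a, Clec7a and Clec12a, and control replicate 1 is the lowest library for Clec4d, Clec4e, Clec4a2 and Clec7a.

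Among the activating receptors of the Dectin-2 cluster, Clec4d (ENSMUSG00000030144, chr6:123262111-123275265) had 8256 and 10060 counts in the control libraries and 11051 and 9875 with EGCG, which correspond to 452 and 563 CPM and to 610 and 553 CPM. EGCG replicate 2 thus lay below control replicate 2, and control replicate 1 lay below the other libraries. The log2 fold change was 0.20 (standard error 0.10, 95% interval from -0.01 to 0.41), and the adjusted p was 0.449 by edgeR. Without control replicate 2 it was 0.36, with an adjusted p of 0.0315, and without control replicate 1 it was 0.05, with an adjusted p of 0.973, both by edgeR. In these fits and the others with 1 library left out, 1 group is a single library that is assumed to vary like the pair in the other group, and over all genes 354 passed without control replicate 2, against 22 with all 4 libraries, so that a pass there is not comparable with the test on all libraries. Over the 10 alternatives that kept all libraries, the adjusted p of Clec4d ran from 0.404 to 0.767.
Clec4e (ENSMUSG00000030142, chr6:123281789-123289870), the receptor of mycobacterial cord factor, had 471 and 519 CPM in control and 536 and 526 CPM with EGCG. Both EGCG libraries were higher than both control libraries, by a small margin over control replicate 2. The log2 fold change was 0.10 (standard error 0.08, interval from -0.07 to 0.27, adjusted p of 0.648 by edgeR). Clec4d and Clec4e, whose proteins pair with each other, were at a ratio of CPM of 0.960 and 1.08 in control and 1.14 and 1.05 with EGCG, with overlapping groups.
Clec4n (ENSMUSG00000023349, chr6:123229843-123247021) had 265 and 282 CPM in control and 258 and 268 CPM with EGCG, the narrowest range of the abundant receptors in both groups together. Its log2 fold change was -0.05 (standard error 0.07, interval from -0.21 to 0.11, adjusted p of 0.826 by edgeR).

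Clec7a (ENSMUSG00000079293, chr6:129461591-129472779) had the most reads of the 8 genes, with 19506 and 21985 counts in control and 20921 and 20862 with EGCG. In the annotation this gene has the biotype of a polymorphic pseudogene, the class of loci that are intact in some strains or haplotypes, and the reads of BALB/c cells were aligned to the reference genome of another strain. Its levels were 1068 and 1230 CPM in control and 1154 and 1168 CPM with EGCG. The EGCG libraries, which differed 1.01-fold from each other, lay between the control libraries, which differed 1.15-fold. The log2 fold change was 0.01 (standard error 0.08, interval from -0.17 to 0.20, adjusted p of 0.968 by edgeR), and it was -0.019 with library size only and -0.013 with the length correction. Clec7a made up 34.1% of the summed CPM of the 8 genes in control and 33.1% with EGCG.
Clec5a (MDL-1, ENSMUSG00000029915, chr6:40574894-40585821), a receptor of myeloid cells that binds dengue virus, had 305 and 340 CPM in control and 341 and 275 CPM with EGCG. The EGCG libraries contained both the highest and the lowest value. Its log2 fold change was -0.07 (standard error 0.10, interval from -0.27 to 0.14, adjusted p of 0.840 by edgeR), which turned to 0.08 without EGCG replicate 2.

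The inhibitory receptors were Clec4a2 and Clec12a. Clec4a2 (DCIR, ENSMUSG00000030148, chr6:123106428-123143999) had 3539 and 3870 counts in control and 4750 and 3951 with EGCG, or 194 and 217 CPM against 262 and 221 CPM. Both EGCG libraries were higher, by a wide gap in replicate 1 and a small one in replicate 2. The log2 fold change was 0.24 (standard error 0.09, interval from 0.04 to 0.43), with an unadjusted p of 0.0206 and an adjusted p of 0.322 by edgeR, and it did not pass the test. Without EGCG replicate 2 the log2 fold change was 0.35, and without EGCG replicate 1 it was 0.11. In both of these fits just the control group kept 2 libraries, so that they are not comparable with the test on all libraries. Over the 10 alternatives with all libraries, by edgeR or DESeq2, the adjusted p of Clec4a2 ran from 0.269 to 0.738. Transcripts of other genes, foremost Clec4a4, contain 10.9% of the 31-base words of Clec4a2, so that some reads may not be unique to it. Clec4a4 had between 2.86 and 3.53 CPM.
Clec12a (MICL, ENSMUSG00000053063, chr6:129342691-129365303), a receptor of uric acid crystals, had 392 and 434 CPM in control and 468 and 385 CPM with EGCG. The EGCG libraries again held the highest and the lowest value. Its log2 fold change was 0.04 (standard error 0.09, interval from -0.16 to 0.25, adjusted p of 0.894 by edgeR), and it became -0.10 without EGCG replicate 1. The summed CPM of Clec4a2 and Clec12a divided by that of the 5 ITAM-coupled receptors was 0.229 and 0.222 in control and 0.252 and 0.217 with EGCG, with overlapping groups.
Clec10a (MGL1, ENSMUSG00000000318, chr11:70156197-70170834) had 46 and 45 counts in control and 33 and 41 with EGCG, or 2.52 and 2.52 CPM against 1.82 and 2.30 CPM. Both EGCG libraries were lower, at few reads. The log2 fold change was -0.29 (standard error 0.27, interval from -0.87 to 0.29, adjusted p of 0.717 by edgeR), so that at this depth neither a decrease to 0.546-fold nor an increase to 1.22-fold was outside the interval. It shares 14.8% of its 31-base words with other genes, foremost its neighbor Mgl2, which had 3.42 to 4.58 CPM.

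Between the control libraries, the higher CPM was 1.25 times the lower for Clec4d, 1.15 times for Clec7a and between 1.06 and 1.12 times for Clec4e, Clec4n, Clec4a2, Clec5a and Clec12a. Between the EGCG libraries, the ratio was 1.24 for Clec5a, 1.22 for Clec12a, 1.18 for Clec4a2 and 1.10 for Clec4d, against 1.01 to 1.04 for Clec7a, Clec4e and Clec4n. Clec10a, with the fewest reads, had ratios of 1.00 and 1.26. Control replicate 1 was the lowest library for 4 of the 8 genes and EGCG replicate 1 the highest for 5 of them. The summed CPM of the 8 genes was 3150 and 3588 in control and 3631 and 3399 with EGCG. The neutrophil marker sum was likewise lowest in control replicate 1 and highest in EGCG replicate 1. Within it, S100a9 (22450 and 28290 CPM in control, 31670 and 27010 with EGCG) and S100a8 had the highest levels. Not all neutrophil markers followed the sum. Ltf and Cd177 were highest in control replicate 1, Csf3r, Cxcr2 and Mmp8 in control replicate 2, and Mmp9 and Ngp in EGCG replicate 2. The part of neutrophil markers in the receptor values was not tested.

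**Figure D3:**
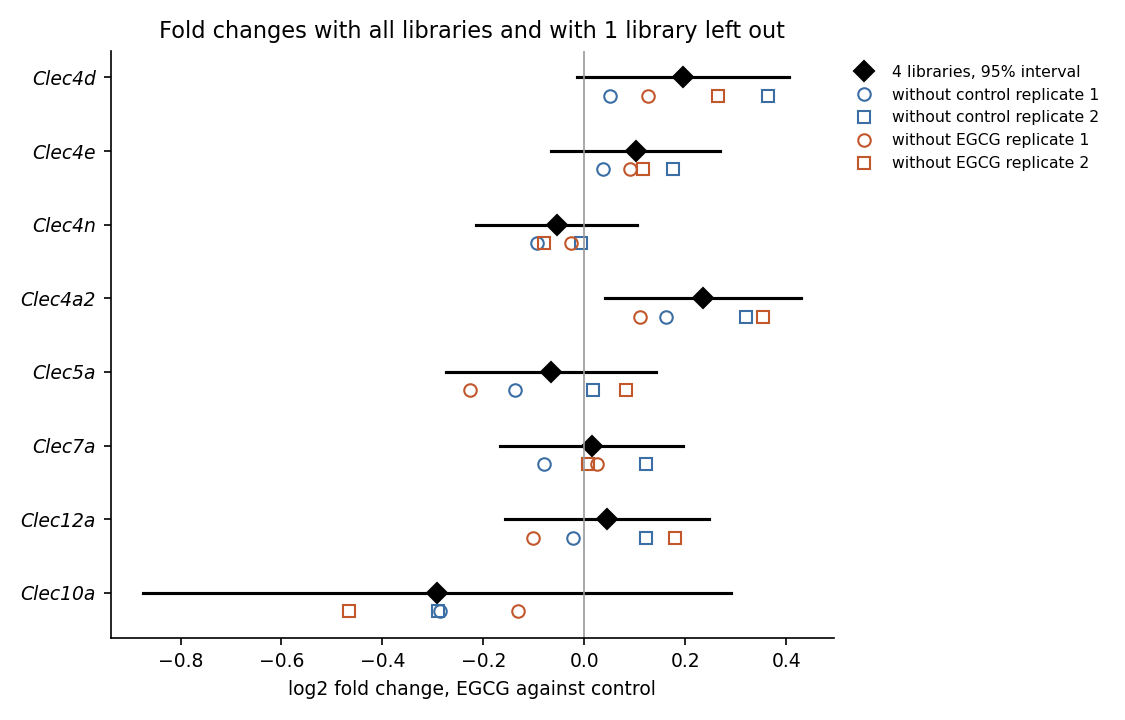
Log2 fold change of each receptor gene (horizontal axis), with the 95% interval from all 4 libraries (diamonds and bars) and the value with 1 library left out (open symbols). The interval of Clec4a2, from 0.04 to 0.43, lies above 0 before adjustment over all genes, and leaving out a library moves Clec5a, Clec7a and Clec12a across 0.

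For Clec4a2, the 3 genes with the most similar course over the 4 libraries were Klra2, Nfkbil1 and Cir1, with root mean square differences of centered log2 CPM of 0.0176, 0.0185 and 0.0219 among 787 candidate genes. Klra2 had 33.4 and 37.5 CPM in control and 46.1 and 37.6 CPM with EGCG, and its adjusted p was 0.403 by edgeR. With 4 libraries such likeness is a description of these values.

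Of 27 other C-type lectin receptor genes, 23 were tested, of which 5 were higher and 18 lower with EGCG (78.3% lower, against 49.4% of all genes), with a median log2 fold change of -0.09. None of the 23 had an adjusted p under 0.05 by edgeR, and 4 had an unadjusted p under 0.05 (17.4% of them, against 12.2% of all genes), 1 higher and 3 lower. The EGCG libraries were both below the control libraries for 8 of the 23 (34.8%, against 21.2% of all genes) and both above for 1 (4.35%, against 21.5%). The 8 included genes at few reads, such as Clec1a with 18 and 20 counts in control and 17 and 16 with EGCG. They also included genes with more reads, such as Ly75 with 2320 and 2142 counts against 2078 and 2094. Clec1a and Ly75 are named after their values were seen. Mrc1, the mannose receptor of macrophages, had 30.0 and 22.8 CPM in control and 15.8 and 18.4 CPM with EGCG. Its log2 fold change was -0.63 (standard error 0.14, adjusted p of 0.0870 by edgeR), and it passed with library size only, with the robust fit and with DESeq2. Both EGCG libraries lay below both control libraries, as they did in the sum of macrophage markers. The endothelial lectin Clec14a had 13 and 17 counts in control and 5 and 7 with EGCG (log2 fold change of -1.30, standard error 0.52, adjusted p of 0.339 by edgeR). Cd302 was at 0.30 (standard error 0.10, adjusted p of 0.274) and Clec2d, a ligand of an NK cell receptor, at 0.18 (standard error 0.10, adjusted p of 0.502). The remaining gene with an unadjusted p under 0.05, Olr1, a scavenger receptor of oxidized LDL that is named here after its values were seen, was at -0.26 (standard error 0.11, adjusted p of 0.343). In the Dectin-2 cluster, the neighbors Clec4a1, with 72.1 and 73.3 CPM in control and 67.2 and 67.7 CPM with EGCG, and Clec4a3, with 104 and 112 CPM against 115 and 97.0 CPM, are also named after their values were seen.

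Downstream of the receptors, 59 of 61 signaling and target genes were tested. None had an adjusted p under 0.05 by edgeR or DESeq2, and 6 had an unadjusted p under 0.05 by edgeR (10.2%, against 12.2% of all genes), 1 higher and 5 lower. In all, 20 were higher and 39 lower (66.1%, against 49.4% of all genes), with a median of -0.07.
Among 18 adaptors and proximal kinases, the median was 0.0008, with 10 higher and 8 lower. Tyrobp, the DAP12 adaptor of Clec5a, had 1178 and 1429 CPM in control and 1564 and 1408 CPM with EGCG, so that the groups overlapped (log2 fold change of 0.19, standard error 0.10, adjusted p of 0.463 by edgeR). On the lower side were Src at -0.50 (standard error 0.18, adjusted p of 0.279) and the Tec kinase Btk at -0.14 (adjusted p of 0.461).
In the CARD9 complex and its regulators (8 genes, median of -0.06), Bcl10 had a log2 fold change of 0.19 (standard error 0.08, adjusted p of 0.339 by edgeR) and Malt1 of -0.22 (standard error 0.09, adjusted p of 0.364), so that these partners of one complex differed in sign. Bcl10 had 174 and 188 CPM in control and 201 and 212 CPM with EGCG, and Malt1 186 and 154 CPM against 141 and 152 CPM. Trim62, a ubiquitin ligase of CARD9, was at -0.81 (standard error 0.30, adjusted p of 0.295), from 59 and 40 counts in control and 28 and 28 with EGCG. Tab2, an adaptor of the kinase TAK1, was at 0.03 (adjusted p of 0.923). Malt1 passed by edgeR only without control replicate 2, where just the EGCG group kept 2 libraries. Such a pass is not comparable with the test on all libraries.
Among the 5 phosphatases listed beside the inhibitory receptors, the median was -0.09. Ptpn6 (SHP-1) was at 0.07 (adjusted p of 0.779 by edgeR), Inppl1 at -0.17 (0.520) and Ptpn11 (SHP-2) at -0.12 (0.578).
The transcription factors (11 tested of 12) had a median of -0.04. The NF-κB subunits Rela and Relb were at 0.07 and 0.06 and Rel at -0.12, with adjusted p of 0.767, 0.779 and 0.566 by edgeR. Egr2, an early growth response factor, was at -0.25 (standard error 0.11, adjusted p of 0.383), and it passed without EGCG replicate 2.
The cytokine and inflammatory targets (17 tested of 18) had a median of -0.20, with 15 lower (88.2%, against 49.4% of all genes) and 2 higher. Of them, 1 had an unadjusted p under 0.05 (5.88%, against 12.2% of all genes). This gene, Nlrp3, the inflammasome sensor, had 202 and 200 CPM in control and 177 and 173 CPM with EGCG (log2 fold change of -0.20, standard error 0.07, adjusted p of 0.289 by edgeR). Cxcl2, a neutrophil chemokine, had 127 and 166 CPM in control and 119 and 132 CPM with EGCG, which gave -0.22 on the log2 scale (adjusted p of 0.418 by edgeR). Cxcl2 passed only without control replicate 1, where just the EGCG group kept 2 libraries, so that this pass is not comparable with the test on all libraries. The 2 higher genes were Il12b, with 7 and 10 counts in control and 12 and 9 with EGCG (log2 fold change of 0.31, standard error 0.52), and Il1b, at 0.02 (standard error 0.09). The groups overlapped for 13 of the 17 genes, and the EGCG libraries were below the control libraries for 4, or 23.5%, against 21.2% of all genes, and above them for 0, against 21.5% of all genes.

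**Figure D4:**
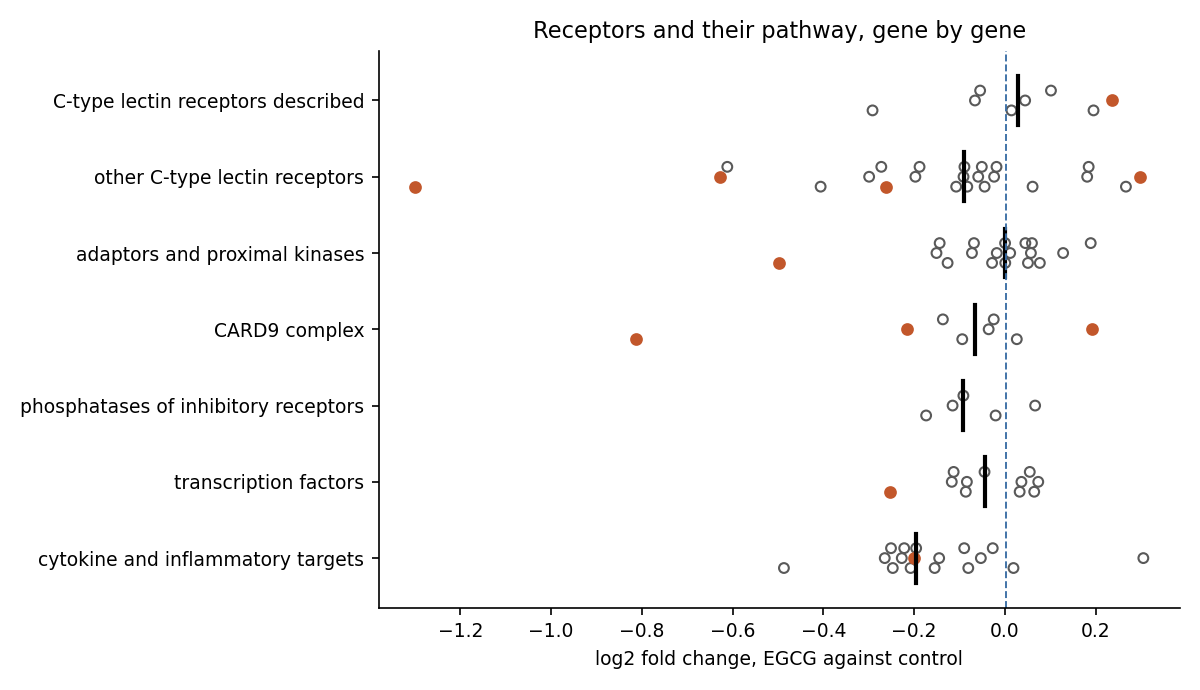
Log2 fold change of every tested gene in each list (points), with filled points for an unadjusted p under 0.05, the median of each list as a bar and the median of all tested genes as a dashed line. The median is 0.03 for the receptors described and -0.20 for the cytokine and inflammatory targets.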

How the data were processed

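MDSC RNA was sequenced from 2 control and 2 EGCG libraries. Per the labels and the paper's methods, the authors used STAR 2.6.0c for alignment to GRCm38 and featureCounts 1.6.2 for counting on Ensembl release 91, and deposited whole-number counts, not normalized. The file name gives the counting as not stranded, and 0 lines named no gene and 0 columns held other samples.
Genes were filtered with edgeR's filterByExpr (minimum count of 10), scaled by TMM, and compared in edgeR 4.0.16 (quasi-likelihood test, legacy form, no block) in R 4.3.3, and p-values were adjusted (Benjamini-Hochberg) across every tested gene, with 0.05 as the threshold. CPM use TMM-scaled totals. The test was checked on simulated counts. The 95% interval of a fold change uses its standard error and the test's degrees of freedom. In this fit the spread of each gene is moderated toward the trend over all tested genes. The p-values and intervals of a gene thus do not rest on its own libraries alone. With 2 libraries against 2 an exact permutation test cannot go below 0.333, so none was run. Exonic lengths and positions came from GENCODE M21 (53360 of 53465 identifiers matched), and promoters from RefSeq (GRCm38.p6).
The receptors and gene lists were chosen with earlier results of these data known. Of each pathway list, genes past the threshold, or otherwise up to 2 per direction with the smallest p, are named. For the receptor gene with the smallest p, the 3 genes nearest in centered log2 CPM are named, among genes with a mean of at least 10 CPM and at least its range. Alternatives were 2 other filters, 3 other scalings, newer and robust fits, DESeq2 1.42.0, a length correction, a replicate block and leaving out each library. Protein sequences were not used here, and some genes of the lists are counted but not reported by name.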

Additional observations from a re-analysis of the deposited data

How the results depend on the processing

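No receptor gene had an adjusted p under 0.05 under the 10 alternatives of filter, scaling, test, length correction and block, but DESeq2 gave no adjusted p for Clec10a. With 1 library left out, the lone library of its group is assumed to vary like the pair in the other group, so that these passes are not comparable with the fit on all libraries, and between 0 and 1 receptor genes passed: Clec4d without control replicate 2 and Clec4a2 without EGCG replicate 2. Clec4d, Clec4e, Clec4n, Clec4a2 and Clec10a kept their direction throughout, but not their size: with a library left out, the log2 fold change ran from 0.051 to 0.36 for Clec4d, from 0.038 to 0.18 for Clec4e, from -0.094 to -0.0067 for Clec4n, from 0.11 to 0.35 for Clec4a2 and from -0.47 to -0.13 for Clec10a. The log2 fold change of Clec7a was -0.019 with library size only and -0.013 after correction for length, and from -0.079 to 0.12 with a library left out (below 0 without control replicate 1). That of Clec12a ran from -0.10 to 0.18 (below 0 when control replicate 1 or EGCG replicate 1 was left out) and that of Clec5a from -0.23 to 0.082 (above 0 when control replicate 2 or EGCG replicate 2 was left out). For all 8 genes together, the median ran from -0.05 to 0.12 in the same way. The cause of these shifts was not tested.
Over all genes, 22 passed in the fit as reported, 0 without a filter on low counts, 151 with library size only, 11 with upper-quartile scaling, 63 with the robust fit, 68 with DESeq2 and 7 with the length correction, and between 77 and 354 with a library left out. Among the other C-type lectin receptors, 1 gene (Mrc1) passed with library size only, with the robust fit and with DESeq2, and between 0 and 1 with a library left out. Among the signaling and target genes, between 0 and 1 passed with a library left out. The replicate numbers are not stated to pair the libraries, and deviations of same-numbered libraries correlated at 0.0338 over the tested genes. With a replicate block, 30 genes and 0 receptor genes passed. The smallest change that could be detected was not measured.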
